A study of Mus musculus with 6 samples.

Results

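Mitosis and G2/M genes were followed in RNA from whole testes of 5 dpp (days postpartum) mice, comparing 3 *Srsf1* conditional knockout (cKO) samples with 3 control (Ctrl) samples. The group held 50 genes, listed by name for their roles in mitotic kinase signalling, kinetochores, spindles, condensin and cytokinesis, and all 50 were found among the 54532 genes of the deposited table. SRSF1 is a splicing factor of the SR protein family. The cKO mice carry *Vasa*-Cre, active in germ cells through the promoter of *Vasa* (also *Ddx4*), and the alleles *Srsf1* Fl/del, so that Cre removes exons 2, 3 and 4 of the floxed allele in germ cells while somatic cells of the testis keep it. By that genotype somatic cells also hold a deleted copy. A lower *Srsf1* level in whole testes therefore cannot be assigned to germ cells alone. The labels name the other group only as Ctrl, and its alleles are not given for these libraries. The tissue label reads testis, although the text on RNA extraction names retinas, and 8 of 8 retina markers stayed under 1 FPKM in every sample. FPKM, sequenced fragments divided by the length of the gene and by the size of the library, is a level that can be compared between genes.

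Cells enter mitosis when cyclin B and CDK1 form an active kinase. Chromosomes are then condensed, attached to the spindle at their kinetochores and held back from separation by the spindle checkpoint until the anaphase-promoting complex, activated by CDC20, targets securin and cyclin B for destruction. Transcripts of this programme are made mainly in G2 and M phases, and their level in a tissue rises with the share of its cells that cycle. In the testis shortly after birth, both Sertoli cells, the somatic support cells of the tubules, and spermatogonia, the mitotic germ cells, divide. In RNA from whole testes, fewer cells of a type and less RNA per cell cannot be told apart.

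Depth was similar between the libraries, with between 15448191 and 18964743 reads recovered per sample. *Srsf1* itself was at 82.1, 89.1 and 88.4 FPKM across Ctrl 1 to 3 against 45.1, 46.3 and 51.6 FPKM across cKO 1 to 3, lower in every cKO library. Germ-cell marker RNA differed most among the marker lists. The summed level of 20 germ-cell markers was 191, 487 and 208 FPKM across Ctrl 1 to 3 against 50.8, 94.7 and 64.0 FPKM across cKO 1 to 3, so Ctrl 2 stood apart from the other Ctrl samples. Of the 19 tested, 17 (89.5%) were lower and 0 higher without overlap. *Kit*, at −0.28, and *Utf1*, at 0.37, overlapped between groups. The 15 Sertoli-cell markers summed to between 2552 and 3942 FPKM in Ctrl and between 3527 and 4001 FPKM in cKO testes, and their log2 fold changes went both ways, from −0.99 for *Cldn11* to 0.91 for *Ptgds*. The 6 peritubular myoid markers had a median of −0.23, with 3 lower (50%) and 1 higher (16.7%) without overlap. The 9 Leydig-cell markers tested had a median of 0.25, with 4 higher (44.4%) and 1 lower (11.1%) without overlap. The 5 erythroid markers tested had a median of 0.69, with 0 without overlap. For the 5 endothelial markers the median was 0.22, with 1 higher (20%) and 0 lower without overlap. For the 8 macrophage markers it was 0.05, with 0 without overlap. Among all genes tested, 12.8% were lower and 10.3% were higher without overlap. The part of these cell-type differences in the mitotic values was not tested.

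Many G2/M promoters carry 2 short elements, the cell cycle genes homology region (CHR), to which MuvB complexes bind, and the CCAAT box, to which NF-Y binds. Both were searched for on both strands of the RefSeq promoters (GRCm38.p6), from 250 bases before to 30 bases after the annotated start. The CHR was searched as TTTGAA or its reverse complement TTCAAA, or in a variant form, TTCGAA, that is its own reverse complement. The CCAAT box was searched as CCAAT or, for the other strand, as ATTGG. A match of one element may share a base with a match of the other, which happened in none of the promoters shown. Of the 50 members, 41 were matched by symbol. A CHR was present in 27 of the 41 (65.9%) against 20.9% of 27025 genes with a promoter in the same table. A CCAAT box was present in 31 (75.6%) against 39.7% of all genes, and both were present in 25 (61.0%) against 7.97%. The following 6 promoters are shown because they belong to the members with the most negative log2 fold changes (*Ccnb1*, *Bub1* and *Ncapg*) and to central members near 0 (*Ccnb2*, *Cdk1* and *Mki67*). They are written 5′ to 3′ on the strand of the gene, with CHR and CCAAT box matches in capitals.
Ccnb1 (chr13:100786457-100786736, - strand): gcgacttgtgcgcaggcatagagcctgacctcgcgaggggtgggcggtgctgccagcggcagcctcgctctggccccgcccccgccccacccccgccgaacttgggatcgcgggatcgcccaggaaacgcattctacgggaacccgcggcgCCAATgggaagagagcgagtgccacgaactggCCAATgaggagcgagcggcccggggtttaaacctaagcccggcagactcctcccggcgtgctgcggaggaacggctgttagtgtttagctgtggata
Bub1 (chr2:127831830-127832109, - strand): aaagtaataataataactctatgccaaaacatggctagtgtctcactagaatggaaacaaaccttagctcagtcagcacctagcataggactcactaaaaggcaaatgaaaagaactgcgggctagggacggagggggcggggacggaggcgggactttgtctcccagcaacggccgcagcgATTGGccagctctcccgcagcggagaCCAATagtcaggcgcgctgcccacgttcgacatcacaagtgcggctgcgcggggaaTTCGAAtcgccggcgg
Ncapg (chr5:45669675-45669954, + strand): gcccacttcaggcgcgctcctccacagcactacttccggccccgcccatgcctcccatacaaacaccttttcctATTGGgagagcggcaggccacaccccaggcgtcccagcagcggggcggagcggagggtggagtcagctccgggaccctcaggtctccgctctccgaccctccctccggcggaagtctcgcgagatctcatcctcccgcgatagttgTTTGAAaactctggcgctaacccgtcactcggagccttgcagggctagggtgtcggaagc
Ccnb2 (chr9:70421525-70421804, - strand): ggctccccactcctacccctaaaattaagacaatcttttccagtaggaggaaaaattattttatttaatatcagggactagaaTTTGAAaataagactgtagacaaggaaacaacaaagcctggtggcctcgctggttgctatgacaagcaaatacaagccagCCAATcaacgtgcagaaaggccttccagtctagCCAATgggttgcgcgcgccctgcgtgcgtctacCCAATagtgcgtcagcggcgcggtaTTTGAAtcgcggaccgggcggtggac
Cdk1 (chr10:69352883-69353162, - strand): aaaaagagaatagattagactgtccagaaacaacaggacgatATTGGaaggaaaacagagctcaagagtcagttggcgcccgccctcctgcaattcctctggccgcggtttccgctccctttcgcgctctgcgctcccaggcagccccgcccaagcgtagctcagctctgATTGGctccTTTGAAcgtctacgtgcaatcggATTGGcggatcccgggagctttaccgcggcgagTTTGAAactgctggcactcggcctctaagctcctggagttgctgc
Mki67 (chr7:135716350-135716629, - strand): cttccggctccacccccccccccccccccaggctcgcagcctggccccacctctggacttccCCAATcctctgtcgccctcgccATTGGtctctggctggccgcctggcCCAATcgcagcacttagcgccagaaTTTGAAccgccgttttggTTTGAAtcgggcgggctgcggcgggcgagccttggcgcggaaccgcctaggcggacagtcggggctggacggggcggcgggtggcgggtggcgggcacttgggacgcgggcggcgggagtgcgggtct

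The promoters of the near-0 members *Ccnb2*, *Cdk1* and *Mki67* each held 2 CHR and 3 CCAAT box matches. The *Ccnb1* window held 0 CHR matches in the forms searched and 2 CCAAT box matches, *Bub1* held 1 and 2, and *Ncapg* held 1 and 1. As these promoters were picked by their fold changes, their counts show no link between elements and change. Over the matched members, the median log2 fold change was −0.076 for the 27 with a CHR and −0.16 for the 14 without, whereas groups without overlap, lower in cKO, were found for 7 of the 27 and for 1 of the 14. For the CCAAT box the median was −0.076 for the 31 members with a match and −0.23 for the 10 without. Groups without overlap, lower, were found for 7 of the 31 and for 1 of the 10. Among all genes tested, 12.8% were lower without overlap. The medians and these counts pointed in opposite directions, but the counts without a match rest on 1 gene each and were not tested. These are matches of letters and do not show binding.

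The 50 mitosis and G2/M genes were expressed in every sample, and most were slightly lower in cKO testes, by amounts that the test did not separate from the spread between replicates. Ctrl means ran from 8.11 FPKM for *Dlgap5*, a spindle protein, to 63.7 FPKM for *Ccnb2*, with a median of 21.8 FPKM, and between 361 and 11892 reads lay behind each value. The log2 fold change of cKO over Ctrl, on the log2(FPKM + 1) scale, was below 0 for 42 members and above 0 for 8. Among all 16206 genes tested, 49.5% were below 0 and 50.5% above 0. The median over members was −0.11, against 0.0027 over all genes tested, and it was −0.038 without cKO 2 and −0.18 without cKO 3. Mean levels in cKO testes lay between 72.5% of Ctrl for *Ncapg* and 104.8% of Ctrl for *Ube2c*.

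With limma on log2(FPKM + 1) and Benjamini-Hochberg adjustment over all genes tested, 0 of the 50 members were lower and 0 were higher at an adjusted p of 0.05, and the share of all genes called was 0% in either direction. Limma voom on recovered reads also called 0 members, against 0.376% of all genes called lower and 0.136% called higher. With protein-coding genes alone, limma again called 0 members, against 1.33% lower and 0.280% higher. The paper used another test, DESeq2, on these samples and called genes in both directions at an adjusted p of 0.05. From the annotations of those genes it reported abnormal development of germ cells and an arrest of the cell cycle. The 0% above therefore holds for limma on FPKM values and not for every test. The deleted gene *Srsf1* itself was not called by limma over all genes, at an adjusted p of 0.058. A missing call there does not show that a gene was unchanged. *Srsf1* was called by voom (adjusted p 0.025) and by limma on protein-coding genes (adjusted p 0.016). The adjusted p of members ran from 0.195 to 0.986 in limma. At an unadjusted p under 0.05, 8 members were lower and 0 were higher, where 9.31% of all genes were lower and 6.60% were higher, so the lower share of members, 16%, stood above its background. The share depended on single libraries. It was 26% (13 members) against 8.57% of all genes without Ctrl 1 and 10% (5 members) against 6.22% without cKO 1, but 6% (3 members) against 6.69% without Ctrl 2 and 8% (4 members) against 7.51% without cKO 2. The groups did not overlap, with cKO below Ctrl, for 10 members, or 20% of members against 12.8% of all genes. That 12.8% is also the background for the counts without overlap in each role group below. No member had every cKO sample above every Ctrl sample, against 10.3% of all genes. With 2 samples left in a group, non-overlap is more frequent for all genes. Without Ctrl 1 it was found, lower, for 18 members (36%) against 17.8% of all genes, without cKO 3 for 21 members (42%) against 19.4%, and without Ctrl 2 for 10 members (20%) against 15.9%.

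The intervals limit how large a difference could have been missed. All 50 of the 95% confidence intervals of the log2 fold change lay within 1 on either side of 0, that is within a 2-fold change, and 42 of them included 0. The lowest bound was −0.77 for *Bub1* and the highest was 0.40 for *Spc25*. Standard errors ran from 0.077 to 0.19. In the plot of log2 fold changes, 10 members lay under −0.3 and 23 lay within 0.1 of 0.

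**Figure D1:**
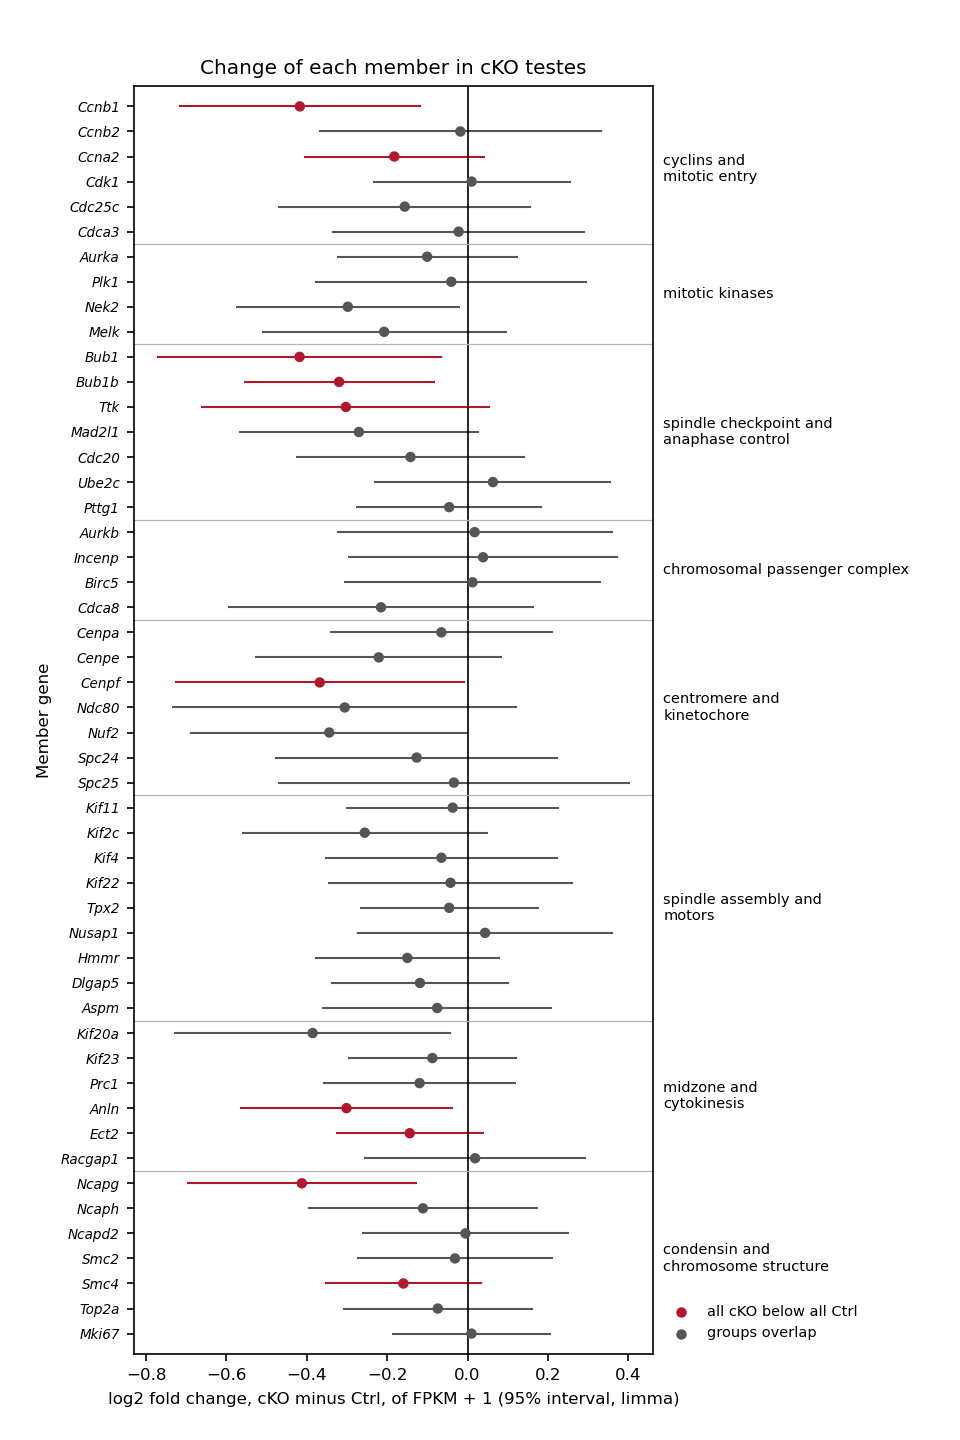
Log2 fold change of cKO over Ctrl on the log2(FPKM + 1) scale (x axis) for each of the 50 members (y axis, grouped by role), with points for the limma estimate and bars for its 95% confidence interval. The 10 members whose groups did not overlap are in red, and 42 of the 50 points lie below 0.

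Cyclins and regulators of mitotic entry (6 genes) had a median difference of −0.09 on the log2 scale, which became 0.0065 without cKO 2 and −0.22 without cKO 3, and 5 were below 0. *Ccnb1* (ENSMUSG00000041431, chr13:100778650-100786570, - strand, GRCm38) encodes cyclin B1, the main activating partner of CDK1 at mitotic entry. It was at 38.0, 51.6 and 40.1 FPKM across Ctrl 1 to 3 against 32.9, 29.5 and 33.3 FPKM across cKO 1 to 3. All 3 cKO values lay below all 3 Ctrl values, and limma gave a log2 fold change of −0.42 (SE 0.13) at an adjusted p of 0.205, which ranged from 0.132 to 0.421 over the alternatives. *Ccnb2* encodes cyclin B2, a second cyclin B associated with the Golgi, and was at 61.6, 62.2 and 67.3 FPKM across Ctrl 1 to 3 against 58.7, 53.1 and 79.5 FPKM across cKO 1 to 3. The *Ccnb2* groups overlapped, since cKO 3 was above every Ctrl sample, and the log2 fold change was −0.02. The ratio of *Ccnb1* to *Ccnb2* FPKM was 0.617, 0.829 and 0.596 across Ctrl 1 to 3 against 0.560, 0.554 and 0.419 across cKO 1 to 3, lower in all 3 cKO samples. That ratio was formed after the values were seen and was given no test.

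*Cdk1*, the catalytic partner of both cyclins, was at 38.8, 42.5 and 42.9 FPKM across Ctrl 1 to 3 against 41.3, 37.3 and 47.0 FPKM across cKO 1 to 3. Its groups overlapped, the log2 fold change was 0.01 and the 95% interval ran from −0.23 to 0.25. *Ccna2*, which encodes the S- and G2-phase cyclin A2, was at 47.6, 48.5 and 49.0 FPKM across Ctrl 1 to 3 against 43.5, 37.8 and 46.6 FPKM across cKO 1 to 3. Its groups did not overlap, but limma put it at only −0.18 (SE 0.095), adjusted p 0.403. The other 2 genes, *Cdc25c*, the phosphatase that activates CDK1, and *Cdca3*, a trigger of mitotic entry, overlapped between groups at −0.16 and −0.02. The values of *Ccnb1* are uncertain in part, since the pseudogene *Ccnb1-ps* holds 18.9% of its 50-base stretches and was itself listed at between 0.651 and 1.56 FPKM. *Ccna2* shares 11.4% of its stretches with *Exosc9*, which it overlaps, and strand use in the counting is not given in the sources used here.

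Among the 4 mitotic kinases, all were below 0, with a median of −0.15, and 0 were without overlap. The median was −0.069 without cKO 2 and −0.24 without cKO 3. *Nek2*, a centrosome kinase that helps split the centrosomes, was at 11.2, 14.6 and 12.4 FPKM across Ctrl 1 to 3 against 9.85, 9.37 and 11.2 FPKM across cKO 1 to 3. Here cKO 3 reached the level of Ctrl 1, and limma put the log2 fold change at −0.30 (SE 0.12) with an adjusted p of 0.291. *Plk1*, the polo-like kinase that acts from mitotic entry to cytokinesis, was at 23.1, 22.6 and 27.4 FPKM across Ctrl 1 to 3 against 22.2, 20.4 and 28.9 FPKM across cKO 1 to 3. *Aurka*, the Aurora kinase of the spindle poles, was at 20.3, 19.5 and 19.9 FPKM across Ctrl 1 to 3 against 18.5, 16.6 and 20.6 FPKM across cKO 1 to 3. For both kinases cKO 3 was above every Ctrl sample and cKO 2 was below every Ctrl sample, with log2 fold changes of −0.04 and −0.10. *Melk*, a kinase expressed in dividing cells, overlapped between groups at −0.21. *Plk1* shares 6.56% of its 50-base stretches with the pseudogene *Plk-ps1*.

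The 7 spindle checkpoint and anaphase genes had the lowest median of the 8 role groups, −0.27, with 6 below 0 and 3 without overlap, and it was −0.16 without Ctrl 2. The 4 checkpoint genes lay between −0.42 and −0.27, whereas the 3 genes of anaphase control lay between −0.14 and 0.06. That split was not one of the planned role groups and was not tested. Checkpoint genes outside the members were mostly nearer 0. *Bub3* was at −0.12, *Mad1l1* at −0.16, *Knl1* at −0.15, *Zw10* at −0.15, *Spdl1* at −0.03 and *Zwilch* at 0.0019, and *Kntc1* was at −0.34. *Bub1* (ENSMUSG00000027379, chr2:127801122-127831865, - strand, GRCm38), a checkpoint kinase at kinetochores, was at 20.5, 29.3 and 21.8 FPKM across Ctrl 1 to 3 against 16.1, 16.4 and 19.9 FPKM across cKO 1 to 3. The groups did not overlap, and a log2 fold change of −0.42 (SE 0.15) was the lowest of the 50 members, with an adjusted p of 0.260 in limma that ranged from 0.166 to 0.499 over the alternatives. Without Ctrl 2 its log2 fold change was −0.27. *Bub1b*, which encodes the checkpoint protein BUBR1, was at 31.7, 34.1 and 29.7 FPKM across Ctrl 1 to 3 against 27.1, 22.5 and 26.5 FPKM across cKO 1 to 3. Its groups did not overlap either, and limma gave a log2 fold change of −0.32 (SE 0.10) at an adjusted p of 0.212. *Ttk*, which encodes the checkpoint kinase MPS1, was at 10.4, 15.9 and 10.99 FPKM across Ctrl 1 to 3 against 9.55, 9.84 and 9.75 FPKM across cKO 1 to 3. The cKO samples were close together and all below Ctrl, while Ctrl 2 was far above the other Ctrl samples, and the log2 fold change was −0.30 (SE 0.15), or −0.12 without Ctrl 2. *Mad2l1*, which encodes the CDC20 inhibitor MAD2, overlapped between groups at −0.27.

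*Cdc20*, the activator of the anaphase-promoting complex that the checkpoint holds in check, was at 57.5, 53.5 and 54.2 FPKM across Ctrl 1 to 3 against 53.2, 41.6 and 55.7 FPKM across cKO 1 to 3. Only cKO 2 was clearly below the others, and the log2 fold change was −0.14, or −0.015 without cKO 2. *Ube2c*, the ubiquitin-conjugating enzyme of that complex, was at 52.0, 54.7 and 63.7 FPKM across Ctrl 1 to 3 against 56.6, 53.3 and 68.6 FPKM across cKO 1 to 3. The groups overlapped throughout, and its log2 fold change of 0.06 (SE 0.12) was the highest of the 50 members. *Pttg1*, which encodes the separase inhibitor securin, overlapped between groups at −0.05. *Ube2c* shares 14.1% of its 50-base stretches with *Tnnc2*, and *Cdc20* shares 10.3% with the pseudogene *Gm7856*.

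The chromosomal passenger complex, which corrects faulty attachments and later acts in cytokinesis, was the role group with a median above 0, at 0.015, and 0 of its 4 genes were without overlap. Without cKO 3 that median was −0.12, and without Ctrl 1 it was −0.072. *Aurkb*, its kinase, was at 19.1, 22.3 and 23.9 FPKM across Ctrl 1 to 3 against 20.6, 19.1 and 27.0 FPKM across cKO 1 to 3. *Incenp*, its scaffold, was at 22.7, 29.0 and 29.1 FPKM across Ctrl 1 to 3 against 25.3, 25.0 and 32.8 FPKM across cKO 1 to 3. *Birc5*, which encodes survivin, was at 21.6, 21.6 and 22.5 FPKM across Ctrl 1 to 3 against 22.3, 18.1 and 26.7 FPKM across cKO 1 to 3. For all 3 genes cKO 3 was the highest sample, and the log2 fold changes were 0.02, 0.04 and 0.01. *Cdca8*, which encodes the subunit borealin, was at 13.4, 18.4 and 18.3 FPKM across Ctrl 1 to 3 against 13.0, 12.5 and 17.1 FPKM across cKO 1 to 3. It was the only one of the 4 below 0, at −0.22 (SE 0.16), and its groups overlapped, with Ctrl 1 close to the 2 lower cKO samples.

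The 7 centromere and kinetochore genes were all below 0, with a median of −0.22, and 1 was without overlap. Without Ctrl 2, *Cenpf* was at −0.21 and *Ndc80* and the median were at −0.15. *Cenpf*, a large protein of the outer kinetochore, was at 12.7, 18.0 and 12.4 FPKM across Ctrl 1 to 3 against 10.1, 12.1 and 10.1 FPKM across cKO 1 to 3. The nearest samples of the groups, cKO 2 and Ctrl 3, were close, and limma put the log2 fold change at −0.37 (SE 0.15) with an adjusted p of 0.305. *Ndc80*, the subunit that binds microtubules in the NDC80 complex, was at 7.66, 12.4 and 10.05 FPKM across Ctrl 1 to 3 against 7.05, 7.07 and 9.48 FPKM across cKO 1 to 3. Its groups overlapped, with a log2 fold change of −0.31 (SE 0.18). *Spc25*, another subunit, was at 17.6, 26.4 and 23.3 FPKM across Ctrl 1 to 3 against 19.2, 19.1 and 27.2 FPKM across cKO 1 to 3, with cKO 3 the highest sample and a log2 fold change of −0.03. Among the 4 subunits of that complex, *Nuf2* was at −0.34 like *Ndc80*, and *Spc24* was at −0.13. *Cenpe*, a kinetochore motor, and *Cenpa*, the centromeric histone, overlapped between groups at −0.22 and −0.07.

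The 9 genes of spindle assembly and motors had a median of −0.07, with 8 below 0 and 0 without overlap, and without cKO 2 the median was 0.026. *Kif2c*, a kinesin that depolymerises microtubules at centromeres, had the lowest log2 fold change of them, −0.26 (SE 0.13), at 19.7, 24.8 and 17.9 FPKM across Ctrl 1 to 3 against 18.0, 15.6 and 17.8 FPKM across cKO 1 to 3. Ctrl 3 lay below cKO 1, so the groups overlapped, and without Ctrl 2 the value was −0.13. *Kif11*, the kinesin that pushes the spindle poles apart, was at 35.9, 40.6 and 45.3 FPKM across Ctrl 1 to 3 against 39.7, 36.0 and 42.7 FPKM across cKO 1 to 3. *Nusap1*, a protein that bundles spindle microtubules, was at 23.3, 29.5 and 29.9 FPKM across Ctrl 1 to 3 against 27.8, 25.0 and 32.5 FPKM across cKO 1 to 3. Both overlapped widely, with log2 fold changes of −0.04 and 0.04. *Tpx2*, *Kif4*, *Kif22*, *Hmmr*, *Dlgap5* and *Aspm*, which organise the spindle or move chromosomes on it, lay between −0.15 and −0.04 and also overlapped. *Kif4* shares 14.2% of its 50-base stretches with *Pdzd11*.

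The 6 genes of the midzone and cytokinesis had a median of −0.13, with 5 below 0 and 2 without overlap. *Anln* encodes anillin, a scaffold of the contractile ring, and was at 15.9, 18.9 and 15.1 FPKM across Ctrl 1 to 3 against 14.3, 11.9 and 13.6 FPKM across cKO 1 to 3. Limma put it at −0.30 (SE 0.11), adjusted p 0.270, and the groups did not overlap. *Ect2*, the exchange factor that activates RhoA at the cell equator, was at 15.2, 16.5 and 16.9 FPKM across Ctrl 1 to 3 against 14.4, 14.7 and 14.6 FPKM across cKO 1 to 3. The *Ect2* groups did not overlap, although the difference was small, at −0.14 (SE 0.077). *Racgap1*, a subunit of the centralspindlin complex that recruits ECT2, was at 20.8, 21.6 and 25.1 FPKM across Ctrl 1 to 3 against 22.0, 20.5 and 26.0 FPKM across cKO 1 to 3, with a log2 fold change of 0.02. *Kif20a*, a kinesin of the midzone, was at 29.0, 31.8 and 22.9 FPKM across Ctrl 1 to 3 against 23.7, 21.2 and 18.2 FPKM across cKO 1 to 3. Its log2 fold change of −0.39 (SE 0.15) had an adjusted p of 0.277 in limma, and Ctrl 3 lay below cKO 1. *Kif20a* shares 25.2% of its 50-base stretches with its neighbour *Cdc23*, so its value is uncertain. *Kif23*, the kinesin of centralspindlin, and *Prc1*, which bundles midzone microtubules, overlapped between groups at −0.09 and −0.12.

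The 7 genes of condensin and chromosome structure had a median of −0.07, with 6 below 0 and 2 without overlap. Without Ctrl 2 the median was −0.00054, without cKO 2 it was −0.020, and without Ctrl 1 it was −0.13. *Ncapg* (ENSMUSG00000015880, chr5:45669919-45700546, + strand, GRCm38) encodes a regulatory subunit of condensin I and was at 9.99, 13.7 and 11.5 FPKM across Ctrl 1 to 3 against 8.97, 7.95 and 8.57 FPKM across cKO 1 to 3. All cKO samples lay below Ctrl, with a log2 fold change of −0.41 (SE 0.12). Its adjusted p of 0.195 in limma was the smallest of the 50 members and ranged from 0.114 to 0.390 over the alternatives. *Ncapg* shares 11.8% of its 50-base stretches with the neighbouring *Lcorl*. *Smc4* and *Smc2* encode the paired ATPase subunits of condensin. *Smc4* was at 41.1, 46.0 and 45.0 FPKM across Ctrl 1 to 3 against 39.0, 37.8 and 41.0 FPKM across cKO 1 to 3. Its highest cKO and lowest Ctrl samples were almost level, and the log2 fold change was −0.16 (SE 0.082). *Smc2* was at 27.4, 34.2 and 33.3 FPKM across Ctrl 1 to 3 against 31.3, 29.5 and 31.6 FPKM across cKO 1 to 3, overlapped between groups and was at −0.03.

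*Mki67*, which encodes the proliferation marker Ki-67 that coats mitotic chromosomes, was at 36.9, 37.3 and 38.2 FPKM across Ctrl 1 to 3 against 41.0, 35.3 and 37.1 FPKM across cKO 1 to 3. *Top2a*, the topoisomerase that untangles sister chromatids, was at 57.4, 69.3 and 61.3 FPKM across Ctrl 1 to 3 against 61.4, 54.9 and 61.9 FPKM across cKO 1 to 3. The groups overlapped for both, and the log2 fold changes were 0.01 (SE 0.083) and −0.07 (SE 0.10). The ratio of *Bub1* to *Mki67* FPKM, also formed after the values were seen, was 0.557, 0.784 and 0.570 across Ctrl 1 to 3 against 0.394, 0.463 and 0.537 across cKO 1 to 3. *Ncaph* and *Ncapd2*, the other condensin I subunits of the group, overlapped at −0.11 and −0.01.

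**Figure D2:**
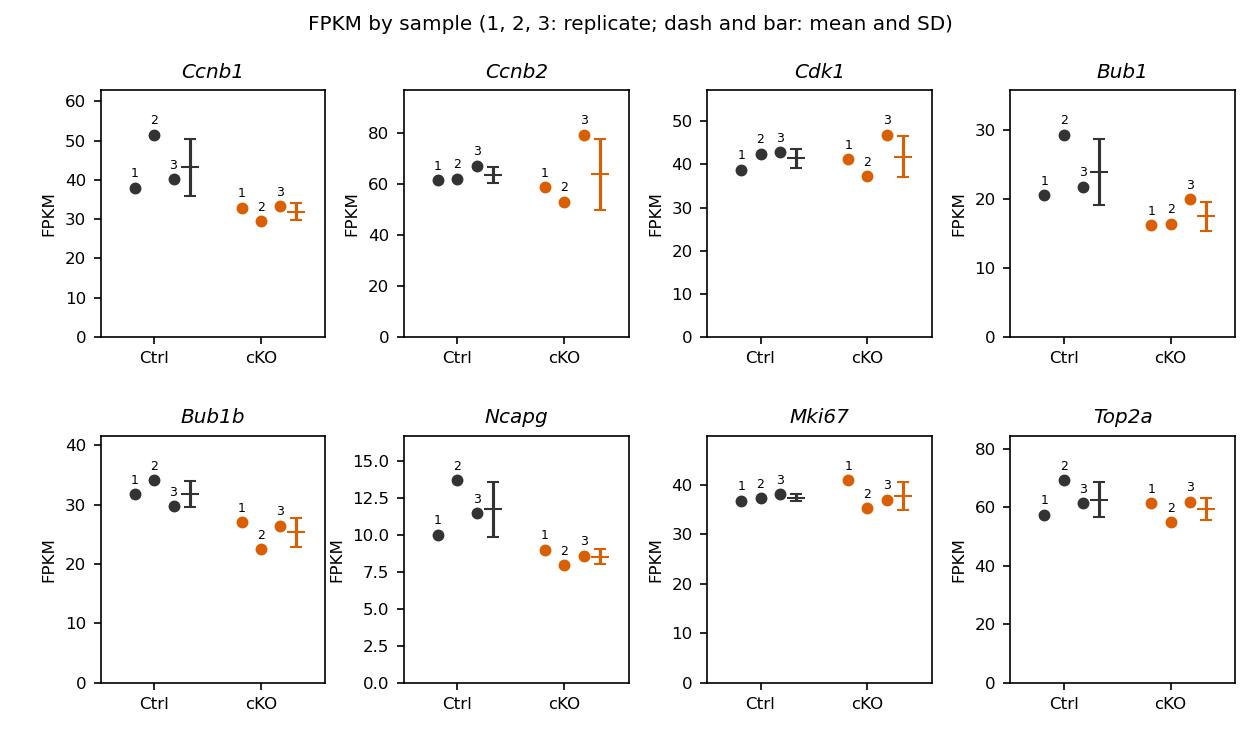
FPKM in each of the 6 samples (points; y axis from 0) for 8 members from different roles, with Ctrl and cKO on the x axis, the replicate number above each point, and a dash with bars for the mean and SD of each group. *Ccnb1*, *Bub1*, *Bub1b* and *Ncapg* are lower in all 3 cKO samples, whereas *Ccnb2*, *Cdk1*, *Mki67* and *Top2a* overlap between the groups.

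The members also moved together between samples of the same group. Of the 50 members, 35 (70%) had their lowest value in cKO 2, against 16.9% of all genes tested, and 0 had their highest value there. Ctrl 2 was the highest sample for 21 members (42%) against 25.0% of all genes, and cKO 3 was the highest for 16 (32%) against 21.3%. The median deviation of the members from their own mean, on the log2(FPKM + 1) scale, was −0.04, 0.10 and 0.09 across Ctrl 1 to 3 against −0.05, −0.20 and 0.06 across cKO 1 to 3. Thus cKO 3 lay above Ctrl 1, and the groups overlapped. Summed over the 50 members, the level was 1199, 1362 and 1306 FPKM across Ctrl 1 to 3 against 1194, 1070 and 1309 FPKM across cKO 1 to 3. The mean sum was 1289 ± 82.9 FPKM (SD, n = 3) in Ctrl and 1191 ± 120 FPKM (SD, n = 3) in cKO testes, a difference within the spread between replicates.

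**Figure D3:**
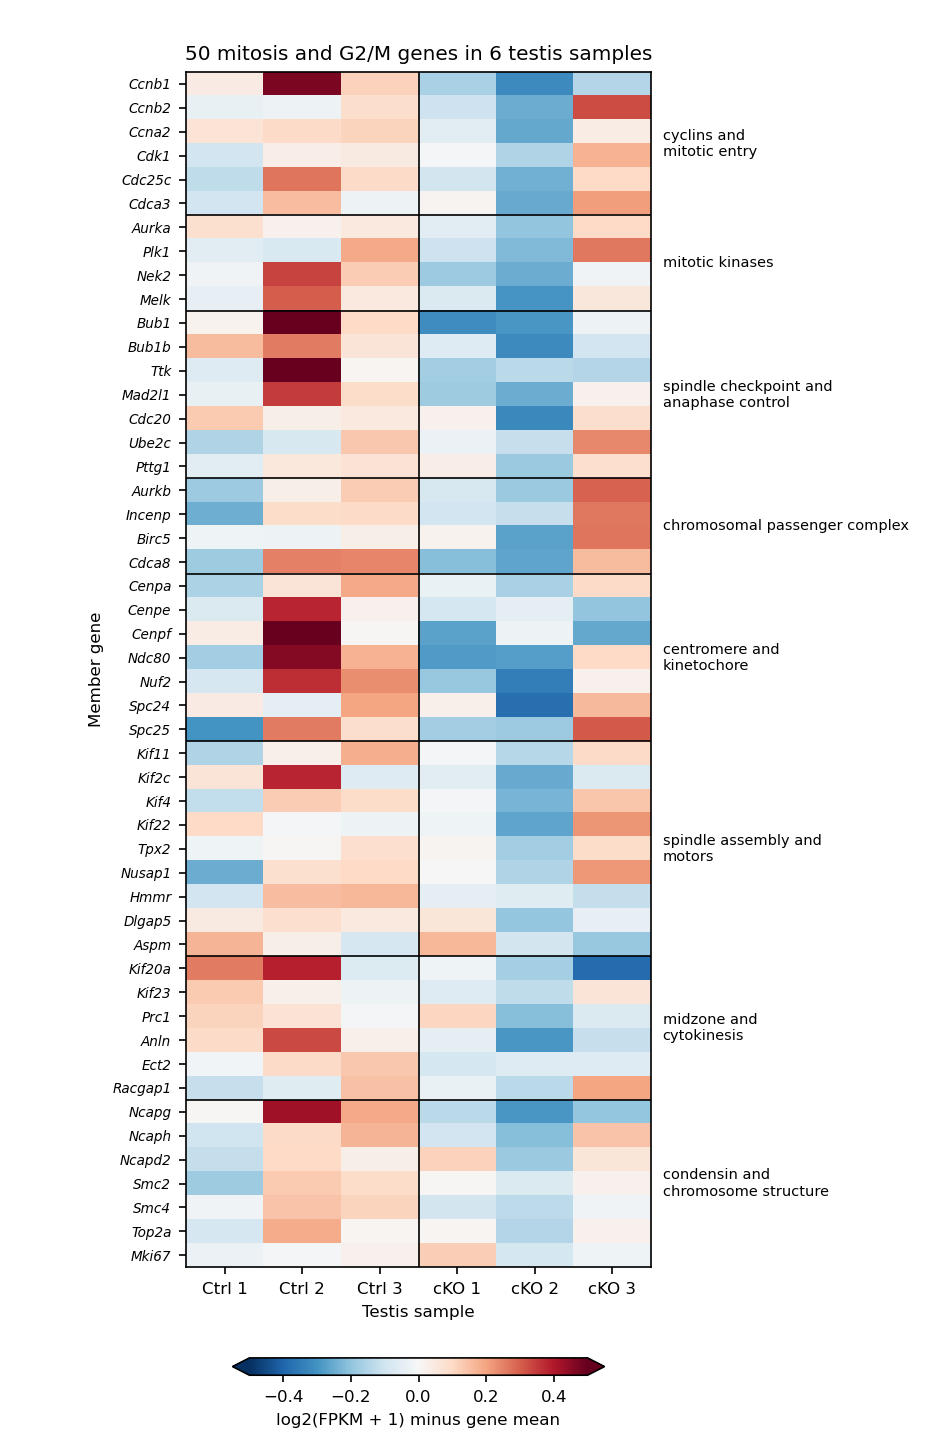
Heat map of log2(FPKM + 1) minus the gene's mean over the 6 samples, for the 50 members (rows, by role) in each sample (columns), with colours saturated at 0.5 on either side of 0. The cKO 2 column is the lowest for 35 members, and the cKO 3 column is the highest for 16.

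Because cKO 2 was the lowest sample for most members, the values were computed again without it. The median log2 fold change of the members was then −0.038, and without cKO 3 it was −0.18, with 0 members called in limma either way. Libraries also differed by gene length. Protein-coding genes of up to 1500 bases deviated by a median of −0.12 in cKO 2 and 0.09 in cKO 3, and genes over 8000 bases by 0.06 and −0.07. Members that peaked in cKO 3 had a median length of 3202.5 bases, against 5210 bases for those that peaked in Ctrl 2. With the length trend of each library removed, an alternative chosen after seeing the data, cKO 2 was the lowest sample for 36 members and cKO 3 the highest for 15, and the median log2 fold change was −0.11 as before.

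**Figure D4:**
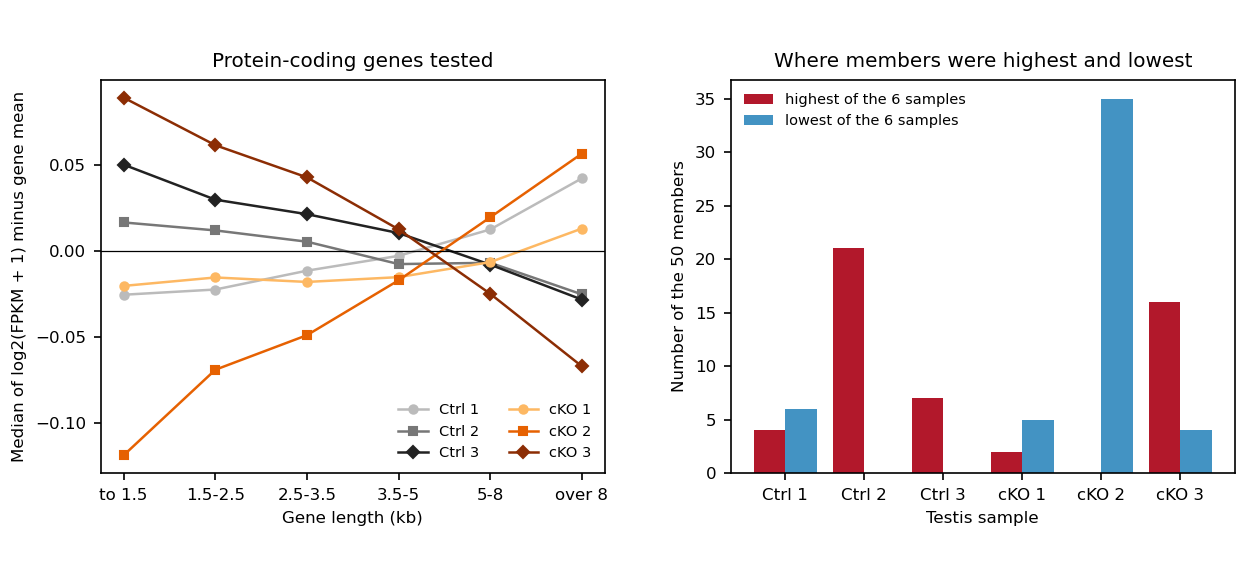
Left, median deviation of protein-coding genes from their own mean (log2(FPKM + 1) scale, y axis) by class of gene length in kb (x axis), with a line for each of the 6 libraries, of which cKO 2 runs from −0.12 in the shortest class to 0.06 in the longest and cKO 3 from 0.09 to −0.07. Right, number of the 50 members (y axis) that were highest or lowest in each sample (x axis), with 35 lowest in cKO 2.

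Other genes of the cell cycle were compared as lists. Of 65 further mitotic genes, 64 were tested, with a median log2 fold change of −0.13 close to that of the members, 53 below 0 and 11 above 0. That median was −0.069 without cKO 2 and −0.086 without Ctrl 2. None of the 64 was called by limma, voom or limma on protein-coding genes. At an unadjusted p under 0.05, 9 were lower and 1 was higher, against 9.31% and 6.60% of all genes. Without overlap, 11 (17.2%) were lower and 3 (4.69%) were higher, against 12.8% and 10.3% of all genes. They ran from −0.51 for *Cdca5*, which encodes the cohesin protector sororin, to 0.23 for *Ska2*, a kinetochore subunit. The 20 genes of G2/M transcription regulators had a median of −0.05, with 15 below 0 and 0 called by any of the 3 tests, 1 of them lower at an unadjusted p under 0.05. *Mybl2*, which encodes the B-MYB factor that joins MuvB in S phase, was the lowest, at 7.50, 7.53 and 7.07 FPKM across Ctrl 1 to 3 against 5.19, 4.23 and 6.62 FPKM across cKO 1 to 3, a log2 fold change of −0.42 (SE 0.14, adjusted p 0.241 in limma). *Nfya*, which encodes a subunit of NF-Y, was the highest at 0.26.

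The 21 S-phase genes were all below 0, with a median of −0.22, and 0 were called by limma, voom or limma on protein-coding genes. At an unadjusted p under 0.05, 9 were lower, against 9.31% of all genes. Without overlap, 8 (38.1%) were lower, against 12.8% of all genes. Their median deviation from their own mean was 0.07, 0.24 and 0.09 across Ctrl 1 to 3 against −0.11, −0.29 and 0.02 across cKO 1 to 3. The 7 CDK inhibitors had a median of 0.19, with 2 below 0. *Cdkn2a*, whose locus encodes p16 and p19ARF, was at 12.0, 21.2 and 11.9 FPKM across Ctrl 1 to 3 against 2.71, 4.09 and 2.87 FPKM across cKO 1 to 3. Limma put it at −1.89 (SE 0.23), adjusted p 0.062, above the threshold, and it passed in voom and with protein-coding genes alone. Ctrl 2, the sample with the highest germ-cell marker sum, was also the highest for *Cdkn2a*. It was the highest sample for 25.0% of all genes tested as well, and a link between the marker sum and *Cdkn2a* was not tested. At the other end, *Cdkn1c*, which encodes p57, was at 0.34 and overlapped between groups. *Cdkn1b* was also at 0.34, and its groups did not overlap. It was at 13.1, 13.0 and 15.1 FPKM across Ctrl 1 to 3 against 17.6, 18.3 and 17.0 FPKM across cKO 1 to 3. Its adjusted p was 0.163 in limma, above the threshold.

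**Figure D5:**
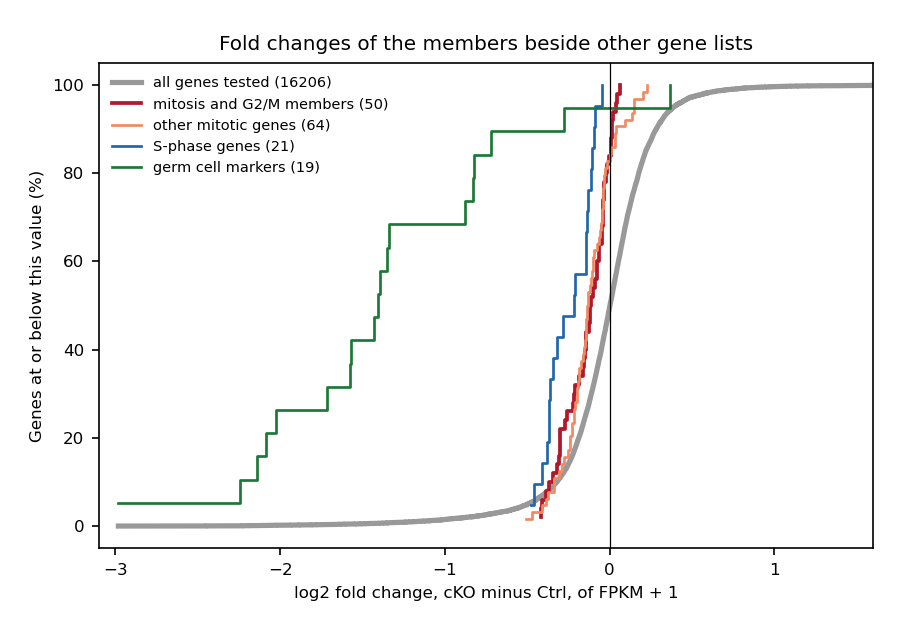
Cumulative percentage of genes (y axis) at or below each log2 fold change of cKO over Ctrl on the log2(FPKM + 1) scale (x axis), with a line for the members, for each of 3 other lists and for all 16206 genes tested. The members have a median of −0.11 and lie between −0.42 and 0.06, while the germ-cell markers have a median of −1.41.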

How the data were processed

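Poly(A) RNA from 6 testis samples, 3 biological replicates per group according to the study, was sequenced by the authors as paired-end reads and aligned with HISAT2 2.0.5 to mm10 per the labels, and the methods name featureCounts for read counting. The paper compared cKO with Ctrl by DESeq2, which was not run here. The authors deposited FPKM values per gene, with gene lengths and GRCm38 coordinates, all used here. Products of FPKM and length were whole multiples of 1 step per sample for 100% of values (within 0.01 of a whole number), which gave the reads per gene. For a 1 kb gene, 3 reads correspond to 0.158 to 0.194 FPKM, a floor that covers counting error only, as reads carried no molecular identifiers. Replicates differed beyond sampling noise (chi-square per degree of freedom of 10.6 to 27.3).

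Log2(FPKM + 1) values were fitted in limma 3.58.1 (R 4.3.3), keeping the 16206 genes that averaged 0.5 FPKM or more, with a mean-variance trend, two-sided p-values and Benjamini-Hochberg adjustment at 0.05. On this scale the change of low genes is understated. The test was tried on simulated reads whose changed genes differed by more than any member did. That trial does not measure power for differences of the members' size. Members and lists were chosen with earlier results of these data known, so lists are described by counts and medians without a test. Named with values in every sample were the lowest and highest member of each of 8 role groups, 15 fixed examples, members past a threshold and members without overlap. Of other cell-cycle lists only the lowest and highest genes were named, and *Cdkn1b* and further checkpoint genes besides. Shared sequence was the share of a gene's 50-base stretches in GENCODE release M21 transcripts that occur in another gene's transcripts on either strand. Of the 50 members, 15 shared none and 9 shared over 10%. Alternatives changed the pseudocount to 0.1 or the minimum mean to 1 FPKM or to none, or used only protein-coding genes, TPM, quantile and median-of-ratios scaling, no trend, voom on the recovered reads, sample weights, the replicate block and leaving out each sample.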

Additional observations from a re-analysis of the deposited data

How the results depend on the processing

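Under all 18 alternatives 0 members were called lower and 0 higher, and the median log2 fold change of the members stayed below 0. Leaving out 1 sample moved that median between −0.18 and −0.038. Samples of the same replicate number were not taken as pairs, since the methods of the paper name no pairing. Their deviations from the group means correlated at 0.066, 0.016 and 0.088. Every sample but cKO 2 correlated best with its own number in the other group, so these values do not exclude a pairing. With the replicate block 0 members were called and their median was −0.11. Under that block 6 members had an unadjusted p under 0.05. The share of all genes under the block is not given, so that count cannot be read as a result about the members. Over all genes tested, where limma called 0, the count of calls was 98 with the replicate block, 68 with sample weights, 5 with TPM, 1 without the trend and up to 18 when 1 sample was left out. Single members near 0 changed sign with sample weights, to −0.039 for *Aurkb*, −0.016 for *Birc5*, −0.0051 for *Cdk1*, −0.0050 for *Incenp* and −0.034 for *Racgap1*, and the cause was not tested. Leaving out 1 sample gave log2 fold changes between −0.12 and 0.11 for *Aurkb*, −0.12 and 0.15 for *Birc5*, −0.074 and 0.088 for *Cdk1*, −0.084 and 0.10 for *Incenp*, −0.049 and 0.056 for *Mki67*, −0.069 and 0.13 for *Nusap1*, −0.075 and 0.097 for *Racgap1*, −0.13 and 0.027 for *Smc2*, −0.20 and 0.088 for *Spc25*, −0.18 and 0.10 for *Ccnb2*, −0.12 and 0.044 for *Kif11*, −0.18 and 0.059 for *Plk1* and −0.042 and 0.15 for *Ube2c*, all of which changed sign. With no change of sign it ran between −0.17 and −0.027 for *Aurka*, −0.25 and −0.10 for *Ccna2*, −0.36 and −0.14 for *Cdca8* and −0.13 and −0.00054 for *Top2a*. Of 558 values of single members, 524 kept their direction and their side of the threshold and 34 changed direction. The number of members lower at an unadjusted p under 0.05 was 13 without Ctrl 1, 3 without Ctrl 2, 5 without cKO 1 and 4 without cKO 2, where 8.57%, 6.69%, 6.22% and 7.51% of all genes were lower, and without Ctrl 1 and without cKO 3, 18 and 21 members had no overlap (36% and 42%, against 17.8% and 19.4% of all genes). With the gene-length trend removed, an alternative chosen after seeing the data, 8 members were at an unadjusted p under 0.05 and 10 had no overlap. Shares of all genes are not given for that alternative either, so these counts have no background. With 3 samples per group, differences inside the intervals could not be separated from the spread between replicates, and every value of a member rested on at least 361 reads.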
